A study of Mus musculus with 26 samples.

Results

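Semaphorins are secreted or membrane-bound guidance proteins, and plexins and neuropilins are the receptors that read them. The family was taken from the gene symbols of the deposited table, as every gene named Sema3 to Sema7 with a letter, Plxn, Plxdc or Nrp with its number. The symbols gave 33 genes of 23107, which are 20 semaphorins, 11 receptors (2 neuropilins and 9 plexins) and the 2 plexin domain-containing genes Plxdc1 and Plxdc2. All 33 had enough counts to be tested, among 16713 genes in the comparison of fractions.

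Class 3 semaphorins are secreted and mostly act through a neuropilin, which binds the ligand, joined to a class A plexin, which carries the signal into the cell. The other classes sit in or on the membrane and mostly bind plexins directly, and the plexin's cytoplasmic part then acts on small GTPases and the cytoskeleton. In the embryo, axons of the nose guide gonadotropin-releasing hormone (GnRH) neurons into the brain, and Sema3a, Sema7a and the neuropilins are known genes of that journey.

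Ribosome-bound RNA of GnRH neurons was sequenced from the preoptic area of the hypothalamus by translating ribosome affinity purification (TRAP-seq). All mice, controls included, carried the genotype GnRH CRE x Floxed L10a-GFP, in which Cre made in GnRH cells turns on a GFP-tagged ribosomal protein. A cell that made Cre at any earlier stage also keeps the tag. Adult mice aged 55 to 165 days were pooled, 5 to 7 per pool, and every pool gave an immunoprecipitate, enriched for the tagged ribosomes, and a supernatant, which is what the pull-down left behind. The 4 conditions were intact females in diestrus (3 pools), ovariectomized females (3), intact males (4) and orchidectomized males (3), which makes 13 pools and 26 libraries. Replicates are numbered from 0, as in the labels.

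Each library held between 27217000 and 56669000 counts. The tagged cells matched their name: all 6 GnRH neuron markers were higher in the immunoprecipitate. Their summed level was 3474 to 21456 CPM (counts scaled to each library's size after TMM normalization) there against 169 to 1722 in the supernatants. In the immunoprecipitates most of that sum was Gnrh1, at 3174 to 20931 CPM. The summed level of pan-neuronal markers had a median of 5203 CPM in the immunoprecipitates and 5373 in the supernatants, with overlapping ranges. All 10 oligodendrocyte markers, 7 of 10 astrocyte markers and 6 of 10 microglial markers were lower in the immunoprecipitate, while 5 of 11 endothelial markers were higher. The immunoprecipitate of orchidectomized male replicate 0 stood apart, with a summed astrocyte level of 2151 CPM against a median of 505 and a summed endothelial level of 504 CPM against a median of 102. The labels also number the libraries from 1 to 30. Numbers 1 to 10 hold both fractions of 4 intact pools, 2 of each sex, and the other 9 pools lie in 11 to 30, so the numbering is partly confounded with gonadectomy.

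Promoter sequence is shown for 3 members whose level differed between the fractions, the co-receptor gene Nrp1 (higher in the immunoprecipitate) and the semaphorin genes Sema7a and Sema6b (lower). Each line gives the 250 bases before the RefSeq start on GRCm38.p6, read 5′ to 3′ on the gene's own strand. Capitals mark GC boxes (GGGCGG, or its complement on the other strand), the motif that Sp1-type factors bind. None of the 3 windows overlaps a GENCODE exon. The Nrp1 window lies within the gene as GENCODE gives it, which starts at 128358604, and precedes the RefSeq start only.
Nrp1, chr8:128358823-128359072, plus strand: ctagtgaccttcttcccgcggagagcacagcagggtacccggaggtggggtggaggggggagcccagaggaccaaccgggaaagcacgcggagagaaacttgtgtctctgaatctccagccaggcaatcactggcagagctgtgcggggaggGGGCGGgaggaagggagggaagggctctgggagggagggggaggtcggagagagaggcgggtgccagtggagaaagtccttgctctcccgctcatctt
Sema7a, chr9:57939862-57940111, plus strand: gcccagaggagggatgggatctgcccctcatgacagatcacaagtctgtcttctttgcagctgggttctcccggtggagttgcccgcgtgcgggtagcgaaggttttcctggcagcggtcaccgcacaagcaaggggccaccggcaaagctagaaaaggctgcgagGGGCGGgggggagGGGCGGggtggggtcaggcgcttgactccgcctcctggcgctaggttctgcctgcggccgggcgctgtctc
Sema6b, chr17:56140344-56140593, minus strand, the upstream of 2 listed starts: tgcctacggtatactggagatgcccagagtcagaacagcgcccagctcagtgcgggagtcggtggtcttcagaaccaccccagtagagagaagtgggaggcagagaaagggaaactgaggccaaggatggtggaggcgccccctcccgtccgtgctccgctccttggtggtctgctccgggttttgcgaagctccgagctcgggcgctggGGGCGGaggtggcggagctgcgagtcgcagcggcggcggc

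The Sema7a window held 2 GC boxes, and those of Nrp1 and Sema6b held 1 each. RefSeq's table listed 37 such windows for 26 of the 33 members, not for Sema3b, Sema3f, Sema6a, Plxna1, Plxna4, Plxdc1 and Plxdc2. A GC box on either strand lay in 27 of the 37 windows, against 32.7% of all 32851 windows of the same length. The member windows were also richer in CpG, with a median of 13 CpG against 6 over all windows. CCAAT was found in 7 of the 37 (33.8% of all windows), and TATAAA in none (12.4% of all). The full palindrome of the estrogen response element, the binding motif of estrogen receptors, was in none of the 37 and in 0.0639% of all windows. These are letter matches in a short window and say nothing of a factor's binding.

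Levels were set side by side between genes per kilobase of exon, as CPM per kb. Among the ligands, the membrane-bound Sema6b had the highest mean in both fractions, 21.3 ± 5.45 CPM per kb in the supernatant and 16.3 ± 3.59 in the immunoprecipitate (SD, n = 13 pools each). In the supernatant it was followed by Sema4a at 8.83 ± 1.87, Sema4f at 7.93 ± 1.62 and Sema6c at 6.09 ± 1.02 CPM per kb. Sema4a and Sema4f did not differ beyond their spread, while the mean of Sema6b lay more than 1 SD above theirs. The top receptors in the supernatant were Nrp1 at 5.59 ± 1.02 and Plxna1 at 5.40 ± 1.40 CPM per kb, which did not differ beyond their spread.

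In the immunoprecipitate, Nrp1 (9.02 ± 3.25 CPM per kb), Sema4f (9.06 ± 3.21) and Sema4a (8.29 ± 3.13) came after Sema6b with overlapping spreads. At the low end stood several secreted ligands and the receptor Plxnd1, at 0.549 ± 0.383 CPM per kb in the immunoprecipitate and 0.791 ± 0.123 in the supernatant. Sema3g averaged 0.0950 ± 0.158 CPM per kb in the immunoprecipitate and 0.0626 ± 0.0380 in the supernatant, and Sema3d 0.268 ± 0.363 and 0.305 ± 0.103. Sema3e was at 0.490 ± 0.308 and 0.822 ± 0.206 CPM per kb and Sema3a, the best-known repellent of the family, at 0.554 ± 0.338 and 0.911 ± 0.260. Summed per kb, the 20 ligands exceeded the 11 receptors in every library, and such a ratio depends on the number of genes summed. The ratio of ligands to receptors was 1.70 to 2.42 in the immunoprecipitates and 1.90 to 2.60 in the supernatants. It was lower in the immunoprecipitate in 11 of 13 pools. Sema6b, the highest ligand, had a lower mean in the immunoprecipitate, and Nrp1, the highest receptor, a higher one. The part of these genes in the lower ratio was not tested.

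**Figure D1:**
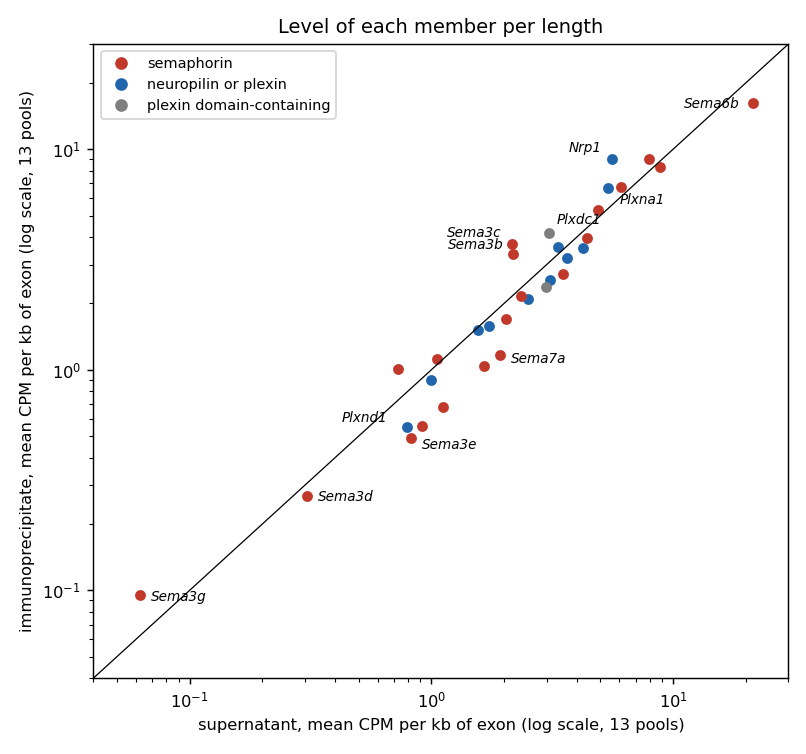
Mean level of each of the 33 members over 13 pools, in CPM per kb of exon on log axes, with the supernatant on x and the immunoprecipitate on y. The line marks equal levels. Sema6b is highest in both fractions (21.3 and 16.3), Sema3g lowest (0.0626 and 0.0950), and Nrp1 and Sema3c lie above the line.

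The comparison of fractions asked which members differed between the immunoprecipitate and the supernatant. Most were not called. Sema3c, Nrp1 and Plxna1 were higher in the immunoprecipitate and Sema7a and Sema6b were lower, at an adjusted p under 0.05 in edgeR's quasi-likelihood test over all tested genes. That is 5 of 33 members, fewer than the share of all tested genes, 42.9% of which were called (21.3% higher, 21.6% lower). The median log2 fold change, immunoprecipitate over supernatant, was -0.14 over the members and -0.06 over all tested genes. In bulk samples, fewer cells of a type and less RNA per cell cannot be told apart. Ligands and receptors were both spread around 0: 1 ligand was higher and 2 were lower of 20 (median -0.22), and 2 receptors were higher and 0 lower of 11 (median -0.12).

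With the pool as a block, so that both fractions of one pool are compared with each other, the same 3 members were higher and 8 were lower (46.2% of all genes were called). The 8 were Sema7a, Sema6b, Sema3a, Sema3d, Sema4c, Sema5a, Sema6a and Nrp2. The members are long, with a median of 6030 bases of exon against 3216 for all tested genes, and 32 of 33 exceed that median. Over tested genes the log2 fold change had a Spearman correlation of -0.24 with exon length. With each library's trend on exon length removed, Sema3c, Nrp1 and Plxna1 were again higher, together with Sema3b, Sema4f and Sema6d, and 1 member, Sema7a, was lower (23.4% and 16.5% of all genes). The median of the receptors then turned to 0.11 and that of the ligands was -0.04. Leaving out 1 library moved the number of lower members to 4 or 6 in 9 of the 26 refits, for which the share of all genes is not given.

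**Figure D2:**
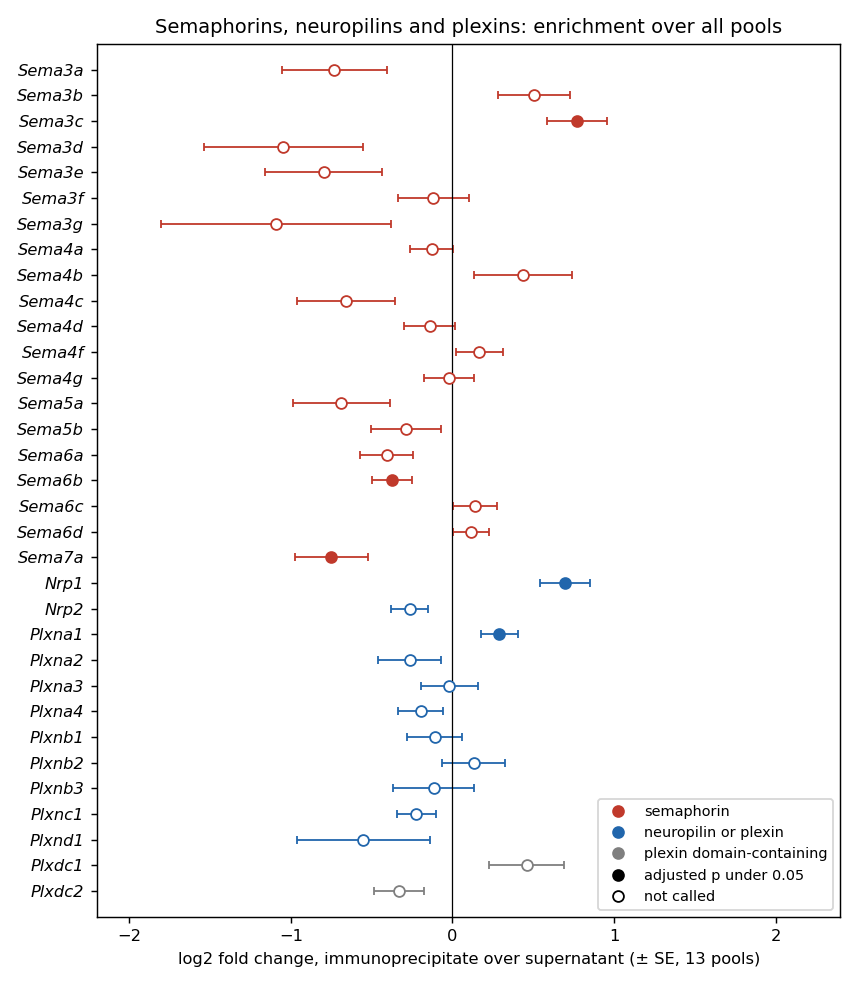
Log2 fold change of immunoprecipitate over supernatant for the 33 members, with the standard error, over 13 pools. Filled points passed an adjusted p of 0.05. Sema3c, Nrp1 and Plxna1 lie to the right, Sema6b and Sema7a to the left, and the widest errors belong to the low-count ligands Sema3g (0.71) and Sema3d (0.49).

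Sema3c, a secreted ligand that can attract as well as repel axons, lies on chromosome 5 from 17574281 to 17730268 on mm10. Its level was 9.17 to 44.9 CPM in the immunoprecipitates (median 15.6, 13 pools) and 4.87 to 17.3 CPM in the supernatants (median 11.4). The ranges overlapped, and the immunoprecipitate was the higher one in 10 of 13 pools. The highest were orchidectomized male replicates 0 and 2, at 44.9 and 35.4 CPM, and intact male replicate 0, at 35.9 CPM. Sema3c was 1.71-fold higher (log2 0.77 ± 0.19 SE, adjusted p 0.00174). It passed in each of the 26 refits that left out 1 library, with log2 0.67 to 0.86, and within both parts of the numbering (log2 0.92 in numbers 1 to 10 and 0.63 in 11 to 30).

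Nrp1, the neuropilin that binds Sema3a and also the growth factor VEGF-A, lies on chromosome 8 from 128358604 to 128503363. It was at 17.3 to 58.5 CPM in the immunoprecipitates (median 30.3) and 14.5 to 26.6 CPM in the supernatants (median 19.96). The immunoprecipitate was higher in 11 of 13 pools, and the 2 exceptions were intact pools of numbers 1 to 10. Nrp1 was 1.62-fold higher (log2 0.70 ± 0.15 SE, adjusted p 0.000790), with log2 0.57 to 0.77 and every refit called when 1 library was left out. In the 4 pools numbered 1 to 10 it did not pass (log2 0.34, adjusted p 0.427), and in the 9 pools numbered 11 to 30 it did (log2 0.78, adjusted p 0.00228). Nrp1 is also made by blood vessel cells, whose summed marker level was 57.3 to 504 CPM in the immunoprecipitates and 49.5 to 116 in the supernatants. Their part in the result was not tested.

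Nrp2, the other neuropilin and the main partner of Sema3f, pointed the other way and did not pass in the unblocked edgeR fit of all libraries, though it did in 5 of the 26 refits without 1 library. It was at 16.1 to 39.8 CPM in the immunoprecipitates (median 26.1) and 20.9 to 49.6 in the supernatants (median 32.1), lower in 10 of 13 pools (log2 -0.26 ± 0.12 SE, adjusted p 0.0690, and 0.0346 with the pool as a block). In the edgeR fit with the length trend removed, Nrp2 was at log2 -0.01 (adjusted p 0.945).

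Sema7a, a membrane-anchored semaphorin that signals through integrins and Plxnc1, lies on chromosome 9 from 57940112 to 57962865. It was at 1.55 to 7.86 CPM in the immunoprecipitates (median 2.99) and 4.32 to 7.599 in the supernatants (median 6.52). The supernatant was higher in 12 of 13 pools, all but intact female replicate 0 (7.86 against 6.90 CPM). Sema7a fell by 0.75 on the log2 scale (± 0.23 SE, adjusted p 0.00993), and -0.99 to -0.64 with 1 library left out, always called. In numbers 1 to 10 alone it was at log2 -0.73 and not called (adjusted p 0.230). Its receptor Plxnc1 had 15.4 to 33.2 CPM in the immunoprecipitates and 18.6 to 42.2 in the supernatants, and did not pass (log2 -0.22 ± 0.12 SE, adjusted p 0.133).

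Sema6b, a transmembrane ligand of class A plexins, lies on chromosome 17 from 56123085 to 56140343. It was at 32.3 to 80.2 CPM in the immunoprecipitates (median 69.7) and 54.6 to 120 in the supernatants (median 81.2). The supernatant was higher in 11 of 13 pools. Sema6b fell by 0.38 on the log2 scale (± 0.12 SE, adjusted p 0.0169). It did not pass with the length trend removed (log2 -0.20, adjusted p 0.207), nor in numbers 11 to 30 (log2 -0.30, adjusted p 0.0820).

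**Figure D3:**
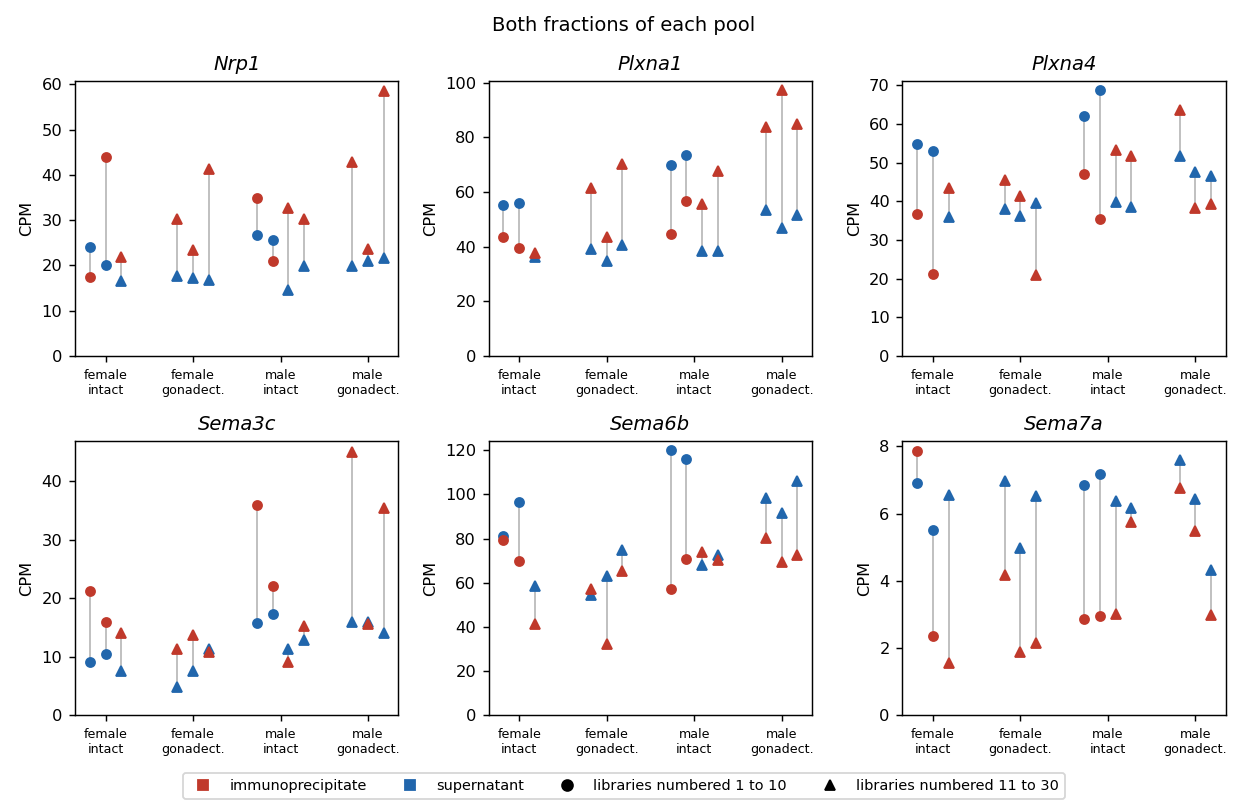
CPM of 6 members in both fractions of each of the 13 pools, by condition. Red is the immunoprecipitate, blue the supernatant, a grey line joins the fractions of 1 pool, and circles are libraries numbered 1 to 10. Plxna1 is lower in the immunoprecipitate in all 4 circle pools and higher in all 9 triangle pools.

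Plxna1, the class A plexin that pairs with neuropilins, lies on chromosome 6 from 89316314 to 89362620. Over all pools it had 37.7 to 97.5 CPM in the immunoprecipitates (median 56.8) and 34.8 to 73.4 in the supernatants (median 46.7), and was 1.22-fold higher (log2 0.29 ± 0.11 SE, adjusted p 0.0397). This call was lost in 11 of the 26 refits without 1 library (adjusted p up to 0.0842). Its direction followed the library numbering. In the 4 pools numbered 1 to 10 the immunoprecipitates averaged 46.1 CPM against 63.7 in the supernatants, and Plxna1 was lower in all 4 (log2 -0.41, adjusted p 0.0232). In the 9 later pools it was higher in all 9 (log2 0.54, adjusted p 0.000761).

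The difference was then tested on intact mice alone, 4 pools against 3, a comparison chosen after the data were seen. The log2 fold change of Plxna1 was 0.84 ± 0.21 (SE) larger in numbers 11 to 30 (adjusted p 0.0172), and that of Plxna4, another class A plexin, was 1.13 ± 0.33 larger (adjusted p 0.0406). These were 2 of 33 members, against 7.83% of all 17620 genes called in this test. Plxna4 averaged 35.1 CPM in the immunoprecipitates and 59.6 in the supernatants of numbers 1 to 10, and 49.4 against 38.0 CPM in the later intact pools. Plxna1 passed in all 14 refits without 1 intact library, and Plxna4 in 2 of 14. The number of members called ran from 1 to 8 in these refits, whose share of all genes is not given. With the length trend removed 0 of 33 passed (Plxna1 0.33, adjusted p 0.458), against 5.63% of all genes. The earlier pools also held more Gnrh1, 16896 to 20931 CPM in the immunoprecipitates against 3174 to 4616 in the later intact ones, and 6 or 7 mice against 5. The part of each in the result was not tested.

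Among class 3 ligands, Sema3a had 0.222 to 7.04 CPM in the immunoprecipitates (median 3.98) and 3.02 to 8.35 in the supernatants (median 5.72). Its supernatant was the higher in 12 of 13 pools, and it did not pass in the unblocked edgeR fit of all libraries (log2 -0.73 ± 0.33 SE, adjusted p 0.0738, and 0.0237 with the block). It passed with limma voom (adjusted p 0.00241) and in 2 of the 26 refits without 1 library, those without immunoprecipitate replicate 0 of either gonadectomized group (lowest adjusted p 0.00169). Sema3b, a secreted ligand of neuropilins, was at 4.63 to 15.2 CPM in 12 immunoprecipitates and at 47.4 in orchidectomized male replicate 0, the library with the high astrocyte sum and also the highest summed level of oligodendrocyte precursor markers (359 CPM). Over the 13 immunoprecipitates Sema3b had a Spearman correlation of 0.91 with the precursor sum and 0.13 with the astrocyte sum, and the part of either was not tested. The supernatants had 5.58 to 10.8 CPM of Sema3b (log2 0.50 ± 0.22 SE, adjusted p 0.0729). Sema3e, the ligand of Plxnd1, had 0.147 to 7.05 CPM in the immunoprecipitates and 3.37 to 8.24 in the supernatants (log2 -0.80, adjusted p 0.0805), and Plxnd1 itself 0.0531 to 8.65 against 4.18 to 6.49 (log2 -0.55, adjusted p 0.295). Sema3f gave log2 -0.12 (adjusted p 0.693).

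The 6 class 4 semaphorins, transmembrane ligands mostly of class B plexins, ran from log2 -0.66 (Sema4c) to 0.44 (Sema4b), and 0 passed. Class 5 gave -0.69 for Sema5a and -0.29 for Sema5b, and the class 6 members other than Sema6b gave -0.41 (Sema6a), 0.12 (Sema6d) and 0.14 (Sema6c). The class B plexins Plxnb1, Plxnb2 and Plxnb3 lay between -0.12 and 0.13, and Plxna2 and Plxna3 at -0.27 and -0.02. Of the plexin domain-containing genes, which are named for a shared domain and are not semaphorin receptors, Plxdc1 gave 0.46 (adjusted p 0.113) and Plxdc2 -0.33 (adjusted p 0.0828). None of these members was called in the unblocked edgeR fit of all libraries. Other fits called some of them: Sema4f and Sema6d were higher with the length trend removed, and Sema5a and Sema6a were lower with DESeq2's Wald test and, with Sema4c and Plxdc2, with limma voom.

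Immunoprecipitates varied more between pools than supernatants, and this held for 32 of 33 members, as it did for 92.7% of all tested genes. The median standard deviation within groups was 0.62 on the log2 scale in the immunoprecipitates and 0.28 in the supernatants, against 0.43 and 0.21 over all tested genes. Plxnd1 (1.33 against 0.24), Sema3e (1.13 against 0.28) and Sema5a (1.12 against 0.28) varied most. Plxna1 was the exception (0.23 against 0.35).

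Within single conditions fewer members passed, in groups of 3 or 4 pools. In intact females 0 were higher and 1 was lower (10.2% and 7.77% of all genes). That was Sema3g, a secreted ligand of vessel cells, with 0 counts in all 3 immunoprecipitates and 0.263, 0.464 and 0.144 CPM in the supernatants. Against a limit of 3 counts over the group, it was at least 12.4-fold lower (adjusted p 0.0389). The call was lost in each refit without 1 of 5 of the 6 libraries (all but supernatant replicate 2). In ovariectomized females 0 members passed (2.97% and 3.31% of all genes). There Nrp1 was at 30.3, 23.5 and 41.3 CPM in the immunoprecipitates and 17.7, 17.2 and 16.8 in the supernatants (log2 0.88 ± 0.32 SE, adjusted p 0.111). Plxna1 was at 61.5, 43.5 and 70.4 against 39.2, 34.8 and 40.5 CPM (log2 0.61 ± 0.23, adjusted p 0.127). The third was Sema3d, at 0, 0.409 and 0.247 against 1.24, 1.82 and 1.94 CPM (adjusted p 0.129).

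In intact males 0 members were higher and 2 were lower (14.6% and 11.2% of all genes). Plxdc2 was at 10.2, 10.6, 12.3 and 17.3 CPM in the immunoprecipitates and 24.5, 26.3, 20.5 and 19.1 in the supernatants. Its log2 fold change was -0.84 ± 0.27 SE (adjusted p 0.0257). Sema3d, a secreted ligand, was at 1.17, 0, 0 and 0.415 CPM against 1.61, 3.70, 2.07 and 2.97 (log2 -2.68 ± 0.93, adjusted p 0.0348). Both calls were lost with the length trend removed, when Plxdc2 was at log2 -0.48 and Sema3d at -2.19, and both were lost in some refits without 1 library.

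In orchidectomized males 2 were higher and 0 lower (5.93% and 4.73% of all genes). Nrp1 was at 42.9, 23.6 and 58.5 CPM in the immunoprecipitates and 19.95, 20.9 and 21.7 in the supernatants (log2 1.00 ± 0.32 SE, adjusted p 0.0462). Plxna1 was at 83.9, 97.5 and 84.7 against 53.6, 46.7 and 51.7 CPM (log2 0.81 ± 0.23, adjusted p 0.0254). With the pool as a block Plxna1 alone passed (5.29% of all genes higher). Neither passed when any 1 of the 3 supernatants or immunoprecipitate replicate 2 was left out. Plxna1 alone of the pair passed without immunoprecipitate replicate 0, and Nrp1 alone without replicate 1.

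Whether sex or gonadectomy changed the enrichment itself was tested as a difference of differences, and 0 of 33 members passed in any of the 4 tests (0.0% of all genes in 3 of them and 0.00598% for sex in intact mice). At an unadjusted p under 0.05 there were 5 members for ovariectomy (7.47% of all genes), 5 for orchidectomy (8.16%), 1 for sex in intact mice (4.43%) and 2 for sex in gonadectomized mice (5.27%). The lowest p belonged to Sema3g for ovariectomy (p 0.00153, adjusted p 0.664), Sema3d for orchidectomy (log2 3.59 ± 1.36 SE, adjusted p 0.593), Sema3d for sex in intact mice (-3.18 ± 1.35, adjusted p 0.9998) and Sema4g for sex in gonadectomized mice (1.65 ± 0.46, adjusted p 0.83). Plxna1 had the next lowest p for both operations, at 0.91 ± 0.33 larger after ovariectomy (adjusted p 0.664) and 0.78 ± 0.31 larger after orchidectomy (adjusted p 0.593). All gonadectomized pools are numbered 11 to 30, so for Plxna1 gonadectomy and numbering cannot be fully told apart. DESeq2's Wald test called 0 members in each of the 4 as well.

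Sex and gonadectomy were next compared within each fraction. In edgeR 0 of 33 members passed in any of the 8 comparisons, and over all tested genes 0.0%, 0.0%, 0.0248% and 0.0186% did in the immunoprecipitates and 0.0122%, 0.0%, 0.0428% and 0.0428% in the supernatants, for ovariectomy, orchidectomy, sex in intact and sex in gonadectomized mice. For ovariectomy in the immunoprecipitates, 4 members had an unadjusted p under 0.05 (3.66% of all genes). Sema3g went from 0 counts in 3 intact pools to 0.521, 0.437 and 2.13 CPM, without overlap and at least 47.8-fold higher against a limit of 3 counts over the group (p 0.0106, adjusted p 0.994). Without replicate 2 it was at least 21.1-fold higher. The summed astrocyte level lay above the intact range as well, at 505 to 694 CPM against 381 to 439, and over the 13 immunoprecipitates Sema3g followed it with a Spearman correlation of 0.86. Its part in the result was not tested. Plxna1 was at 43.6, 39.4 and 37.7 CPM in intact females against 61.5, 43.5 and 70.4 after ovariectomy (log2 0.54 ± 0.21 SE, adjusted p 0.994), and Nrp2 at 29.8, 39.8 and 23.7 against 25.01, 16.1 and 16.1 CPM (log2 -0.71 ± 0.28, adjusted p 0.994). The groups overlapped by 1 ovariectomized pool for each gene. Groups did not overlap for 1 member higher and 2 lower (3.74% and 3.42% of all genes).

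For orchidectomy in the immunoprecipitates, 4 members had an unadjusted p under 0.05, all higher (4.42% of all genes were), and 4 did not overlap, all higher (4.74%, and 4.78% lower). Plxna1 was at 44.5, 56.8, 55.5 and 67.8 CPM in intact males against 83.9, 97.5 and 84.7 after orchidectomy, without overlap (log2 0.66 ± 0.19 SE, adjusted p 0.525). The astrocyte sum was 523 to 2151 CPM after orchidectomy against 362 to 560 in intact males, and the endothelial sum 102 to 504 against 64.4 to 161. Over the 13 immunoprecipitates Plxna1 had a Spearman correlation of 0.79 with the astrocyte sum and of -0.79 with the sum of pan-neuronal markers. Its correlation with the GnRH neuron sum was -0.07. The part of these cell types in the result was not tested. Sema6d, a transmembrane ligand of Plxna1, was at 30.1, 28.6, 42.2 and 38.4 CPM against 66.8, 54.2 and 49.7, also without overlap (log2 0.71 ± 0.26, adjusted p 0.525). Sema3d was at 1.17, 0, 0 and 0.415 against 3.30, 9.79 and 2.69 CPM (adjusted p 0.525). For sex in intact mice 3 members had an unadjusted p under 0.05 (4.11% of all genes), Plxna1 (log2 0.48 ± 0.20), Sema4f (0.78 ± 0.33) and Sema6a (0.86 ± 0.40), each at an adjusted p of 0.991. Of these, Plxna1 alone had groups that did not overlap and were higher in males (2.12% of all genes), and Sema3d alone was lower without overlap (1.76%).

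Between the gonadectomized sexes, 8 members of the immunoprecipitate had an unadjusted p under 0.05, all higher in males (5.28% of all genes were), and 9 did not overlap, all higher in males (11.5%, and 10.3% lower). Sema4g, a transmembrane ligand of class B plexins, was at 8.21, 8.27 and 9.56 CPM in males and 4.08, 3.30 and 1.43 in females (log2 1.56 ± 0.47 SE, adjusted p 0.551). Sema3c was at 44.9, 15.6 and 35.4 CPM in males and 11.4, 13.8 and 10.8 in females (log2 1.42 ± 0.45, adjusted p 0.551), and Sema6d at 66.8, 54.2 and 49.7 against 25.96, 30.5 and 37.7 (log2 0.86 ± 0.28, adjusted p 0.551). All 3 were without overlap. Across the members 29 of 33 had a positive log2 fold change (53.7% of all genes did), with a median of 0.60 against 0.05. Each library's trend on exon length was summarized as a Spearman correlation. It set exon length against each gene's deviation from its mean log2 CPM over all 26 libraries. This correlation did not overlap between these groups, at 0.07 to 0.20 in males and -0.24 to -0.08 in females. With the length trend removed 7 members were negative in place of 4, and the medians of ligands and receptors went from 0.70 and 0.50 to 0.499 and 0.24. Orchidectomized male replicate 0, with its high astrocyte and endothelial sums, had the highest level of Sema3c and Sema6d of the 13 immunoprecipitates. Its part in the median was not tested. Each pool held 5 mice in these males and 7 in these females, so sex and pool size cannot be told apart.

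In the supernatants, which hold what the pull-down left of the preoptic area, 0 members passed for either operation. After ovariectomy 31 of 33 members had a negative log2 fold change (48.9% of all genes did), with a median of -0.22, and 5 had an unadjusted p under 0.05, all lower (2.78% of all genes were). This direction turned with the library numbering. On numbers 11 to 30, which hold 1 intact female pool against 3, 11 of 33 were negative (medians 0.05 for ligands and 0.07 for receptors), and with the numbering as a term 12 were (medians 0.08 and 0.14). Sema4c was at 8.19, 8.63 and 5.69 CPM in intact females and 4.18, 5.98 and 4.98 after ovariectomy (log2 -0.54 ± 0.20 SE, adjusted p 0.653), with an overlap of 1 pool. Plxdc1 was at 9.17, 10.4 and 9.22 against 7.08, 5.38 and 7.15 CPM, without overlap (log2 -0.52 ± 0.21, adjusted p 0.653; 2.23% of all genes were higher and 3.87% lower without overlap). Plxnb2, a class B plexin, was at 27.1, 22.96 and 15.4 against 14.1, 14.7 and 16.1 CPM (log2 -0.51 ± 0.22, adjusted p 0.653). Orchidectomy gave 0 members at an unadjusted p under 0.05 (2.73% of all genes), the lowest p being that of Sema3b (p 0.0916, log2 0.29 ± 0.16), and 0 members whose groups did not overlap (3.07% of all genes were higher and 3.76% lower without overlap). Sex in intact mice gave 3 (3.71% of all genes), Sema3c (log2 0.69 ± 0.22 SE), Sema5a (0.55 ± 0.20) and Plxnb3 (0.61 ± 0.26), all higher in males at an adjusted p of 0.861. For Sema3c the males were at 15.8, 17.3, 11.4 and 12.9 CPM and the females at 9.10, 10.4 and 7.64, without overlap (2.36% of all genes were higher and 7.04% lower in this way). In that comparison 32 of 33 members had a positive log2 fold change, with a median of 0.22, against 54.8% of all genes. The correlation that summarizes the trend on exon length was 0.26 to 0.34 in these males and 0.09 to 0.28 in these females. The directions with this trend removed are not given here.

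Most of the family lay on the male side when the sexes were compared after gonadectomy in the supernatant. There 31 of 33 members had a positive log2 fold change, male over female, against 50.7% of all genes, with a median of 0.46 against 0.01. At an unadjusted p under 0.05 there were 16 members, all higher in orchidectomized males (8.91% of all genes were), and for 21 the groups did not overlap, all higher in males (13.9%, and 12.2% lower). The smallest adjusted p was 0.108, so 0 passed. Sema3a was at 8.07, 8.35 and 5.95 CPM in males and 3.02, 3.94 and 5.18 in females (log2 0.86 ± 0.22 SE, adjusted p 0.108). Sema3c was at 15.91, 15.9994 and 14.02 CPM against 4.87, 7.65 and 11.4 (log2 0.92 ± 0.24, adjusted p 0.108), and Plxnb2 at 27.8, 26.4 and 24.7 against 14.1, 14.7 and 16.1 (log2 0.80 ± 0.22, adjusted p 0.108). None of these 3 overlapped.

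Ligands and receptors shifted alike there, with medians of 0.51 and 0.39. Summed over the family, orchidectomized males had 676 to 702 CPM in the supernatant and ovariectomized females 439, 479 and 565. Summed markers of several cell types moved with this comparison. Without overlap, orchidectomized males were higher for oligodendrocytes (2746 to 2952 against 2230 to 2453 CPM), meningeal cells (200.3 to 226 against 73.9 to 191), mural cells (95.3 to 113 against 40.3 to 77.6) and endothelial cells (90.1 to 99.1 against 56.2 to 87.3). Also without overlap, they were lower for ependymal cells (49.3 to 54.3 against 60.6 to 103) and for pan-neuronal markers (5369 to 5475 against 5535 to 6099). The part of these cell types in the shift was not tested. As in the immunoprecipitates, each male pool held 5 mice and each female pool 7, so sex and pool size cannot be told apart. Total counts did not overlap either, at 45581000 to 47556000 in males and 27217000 to 38959000 in females. The part of this depth was not tested. Females 0 and 1, the lowest 2 in the family sum of this comparison, also stood apart in their trend on exon length. Its Spearman correlation was -0.29 and -0.16, against 0.09 to 0.34 in the other 11 supernatants. Among these, intact female replicate 2 had a family sum of 476 CPM and a correlation of 0.09. With the length trend removed, the medians of ligands and receptors were 0.36 and 0.25, 10 members had an unadjusted p under 0.05 and 0 passed. DESeq2's Wald test called 5 of 32 members (3.18% of all genes higher), a fit with the numbering as a term called 11 (4.18%), and a fit on numbers 11 to 30 called 3 (1.51%). Leaving out female replicate 2 gave 8, for which the share of all genes is not given. Both groups lie in numbers 11 to 30, so neither numbering fit can adjust this comparison for the numbering. With the numbering term Sema3a stayed at log2 0.86 and Sema3c at 0.92.

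**Figure D4:**
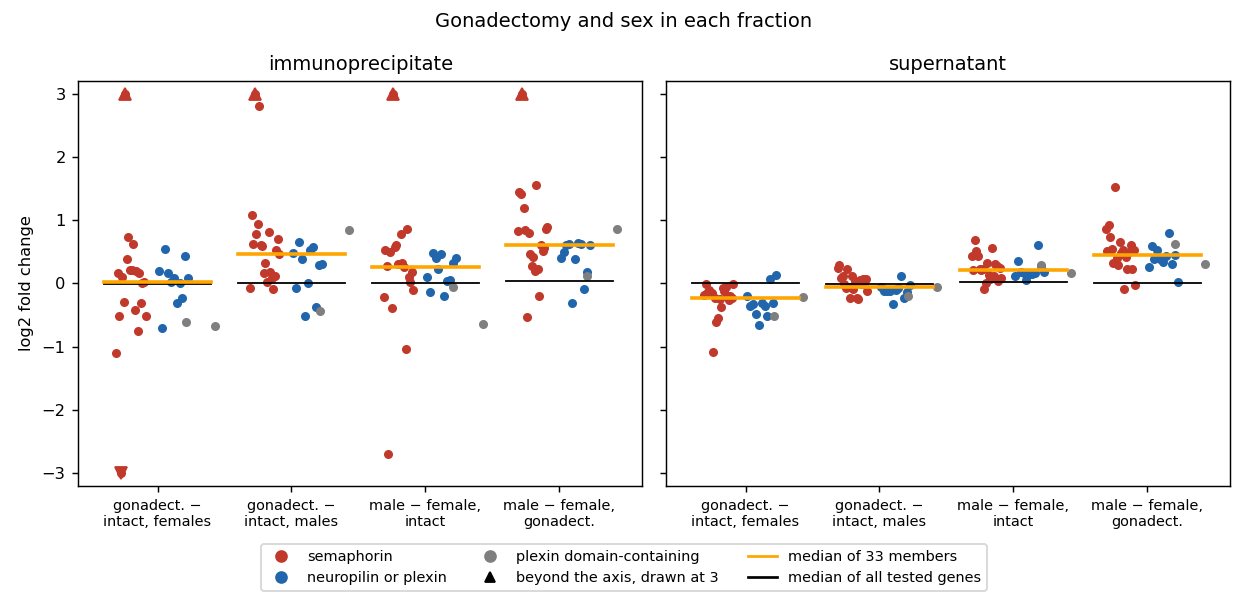
Log2 fold change of each member for gonadectomy and sex, with immunoprecipitates on the left and supernatants on the right. The orange line is the median of the 33 members and the black line that of all tested genes. Triangles mark values beyond the axis. Within each panel the median of the members is highest for the sexes after gonadectomy, with medians of 0.60 and 0.46 against 0.05 and 0.01.

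The molecules that work with the family were read from 4 lists in the comparison of fractions. Of 16 tested co-receptors, 3 were higher and 3 were lower in the immunoprecipitate (median 0.11), near the 21.3% and 21.6% of all tested genes. Higher were Flt1, a VEGF receptor (log2 1.19 ± 0.34 SE, adjusted p 0.00621), Ret, a receptor tyrosine kinase (0.93 ± 0.20, adjusted p 0.000560), and the integrin Itgb1, a partner of Sema7a (0.62 ± 0.13, adjusted p 0.000408). The summed endothelial level reached 504 CPM in the immunoprecipitates and 116 in the supernatants, and its part in these results was not tested. Met, a kinase that joins class B plexins, fell by 4.26 from a low level, with 0.0317 CPM on average in the immunoprecipitates. Itgav fell by 0.69 and the adhesion molecule Chl1 by 0.55. L1cam, which joins Nrp1 in the Sema3a receptor, was at log2 -0.26 ± 0.20 (adjusted p 0.303). Of the 4 growth factors that bind neuropilins, 0 passed, and Vegfa was at -0.22 ± 0.10 (adjusted p 0.0714).

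Downstream of plexins and neuropilins, 18 of 33 signalling genes were lower and 3 higher, with a median of -0.27, where 21.6% of all tested genes were lower and 21.3% higher. Dpysl2, whose protein CRMP2 carries the Sema3a signal to microtubules, fell by 2.00 (± 0.07 SE, adjusted p 4.2e-16) and was lower in 13 of 13 pools. Limk1, the kinase of cofilin, fell by 1.37, Cdk5r1, the activator of Cdk5, by 1.24, and the kinase gene Gsk3b by 0.95, each in 13 of 13 pools. The 3 that were higher were GTPase genes, Rras (0.33), Rap1a (0.23) and Rap1b (0.21). Of 33 genes of other guidance systems, netrins, slits, ephrins and their receptors, 10 were lower and 3 higher (median -0.35, with the same shares over all genes). Efna2 (1.28 ± 0.14 SE, adjusted p 1.3e-07), Epha8 (0.75 ± 0.18) and Slit1 (0.56 ± 0.18) were higher, and Efna4 (-1.82), Epha6 (-1.27), Efnb2 (-1.01) and Dcc (-0.96) were the lowest. Oligodendrocyte and astrocyte markers were lower in the same comparison, and their part in these counts was not tested.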

How the data were processed

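TRAP-seq libraries were made with a low-input kit that does not mark strand, per the labels' protocols. The authors deposited 1 table of estimated counts per gene, for which the submitters' processing notes name Cuffdiff 2.1.1, Cufflinks, TopHat2 2.0.9, FastQC and Bowtie2 2.1.0, and the build mm10. Neither the annotation nor the handling of multi-mapped reads is stated (not given in the sources used here).

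The estimated counts were rounded and tested with edgeR 4.0.16 (quasi-likelihood F-test, TMM scaling, R 4.3.3), on genes kept by filterByExpr (min.count 10, min.total.count 15). P-values were adjusted by Benjamini-Hochberg over all tested genes, with a threshold of 0.05. A CPM is a count scaled to the library size after TMM. All 8 groups shared one fit for the fractions, and each fraction had its own for sex and gonadectomy. Pools are the replicates. Alternatives used limma 3.58.1 and DESeq2 1.42.0, among others. Positions and exon lengths are from GENCODE, promoters from RefSeq (GRCm38.p6). The scripts were tested on simulated data.

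Both fractions of a pool come from the same animals by the labels, and their deviations from the group means correlated at 0.02 to 0.25. Intact males and females of the same number also deviated together (0.11 to 0.29 in the immunoprecipitates, 0.38 to 0.50 in the supernatants).

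Any member could be named. Every called member was given its values, and where none was called up to 3 with the lowest p. From the other lists, called genes with the largest change were named, up to 4 in each direction, with L1cam and Dpysl2 always. The members and lists were chosen with earlier results of these data known. The comparison by library numbering was added after the data were seen.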

Additional observations from a re-analysis of the deposited data

Results flagged for a closer look

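Among 66 sets of 4 intact male libraries, 1 for each member and fraction, 2 had a library far from the other 3, where chance gives about 1 in 20. Sema3g was at 0.391 CPM in immunoprecipitate replicate 3 of the intact males and at 0 in the other 3. Sema7a was at 5.74 CPM in the same library and at 2.88 to 3.03 in the others.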

How the results depend on the processing

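Over all pools, the 3 higher members became 6 with the length trend removed and 2 to 4 with 1 library left out. The 2 lower members became 5 with DESeq2's Wald test, 10 with limma voom, 10 with voom quality weights and the replicate block, 8 with the replicate block, 1 with the length trend removed with or without the block, 8 in numbers 1 to 10, and 2 to 6 with 1 library left out. They were 6 without immunoprecipitate replicate 1 of the intact females or replicate 0 of either gonadectomized group. Plxna1 reversed in numbers 1 to 10 (log2 -0.41). The medians with 1 library left out were -0.35 to -0.16 for ligands and -0.20 to -0.06 for receptors. Counts of members in this section are given without the share of all genes. They do not show whether the family or the whole table moved.

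In intact females, 0 higher members became 1 with the length trend removed, with or without the block. The 1 lower became 0 there and in numbers 11 to 30, 2 with weights and block and in numbers 1 to 10, and 0 to 1 with 1 library left out. Numbers 11 to 30 hold 1 intact female pool, so each arm there is 1 library, assumed to vary like the other groups, and the lost call says nothing of stability. In ovariectomized females, 0 higher became 1 with the length trend removed, with or without the block, and 2 with weights and block and in numbers 11 to 30, and 0 lower became 1 with DESeq2 and with weights and block (0 to 1 with 1 library left out). In intact males, 0 higher became 1 in numbers 11 to 30. The 2 lower became 0 with the length trend removed, with or without the block, and in numbers 11 to 30, 4 in numbers 1 to 10, and 0 to 2 with 1 library left out. In orchidectomized males, 2 higher became 4 with DESeq2, 1 with the block, 5 with weights and block, and 0 to 2 with 1 library left out, and 0 lower became 1 with weights and block.

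For the sexes after gonadectomy in the supernatant, 0 called became 5 with DESeq2, 3 in numbers 11 to 30, 11 with a numbering term, and 0 to 8 with 1 library left out (8 without ovariectomized replicate 2). Both groups of that comparison lie in numbers 11 to 30, so neither numbering fit can adjust it for the numbering. The numbering difference gave 2 called, 0 with the length trend removed, and 1 to 8 with 1 library left out. The cause of these shifts was not tested. For sex in intact mice, the difference in enrichment of Sema3g turned to -0.18 without male immunoprecipitate replicate 3 (highest 5.29 without another library). Sema3g then had 0 counts in every intact immunoprecipitate, so that value is no measured reversal. For sex in gonadectomized mice, the difference in enrichment of Sema3b turned to -0.17 without orchidectomized immunoprecipitate replicate 0 (highest 1.43).

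The replicate block on the pairing by number changed 0 calls in the comparisons of sex and gonadectomy within a fraction. Apart from the intact sexes, those groups share only a number, and 2 of 6, 2 of 7 and 3 of 6 immunoprecipitates correlated best with their own number, as did 2 of 6, 1 of 7 and 3 of 6 supernatants. Groups of 3 or 4 pools and the larger spread of the immunoprecipitates limit what could be called there.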
